A study of Homo sapiens with 4 samples.

Results

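Cadherins and the other proteins of epithelial-mesenchymal transition (EMT) were examined in LN229 cells after exposure to salmon calcitonin (sCT). The antibodies were taken by name from the reverse phase protein array (RPPA). Of 10 names looked for, 9 had a row in the data, each with a single antibody, out of 440 antibodies in all. These were E-Cadherin, Claudin-7, Snail, ZEB1, Twist, Fibronectin, Collagen-VI, CD44 and MMP14. The name without a row was N-Cadherin, which was not analysed here, so the exchange of E-Cadherin for N-Cadherin could not be followed.

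LN229 cells are an established line from a human glioblastoma. The peptide sCT binds and activates the calcitonin receptor (CTR). The comparison asked which proteins differed between LN229 cells given sCT at 300 nM for 60 min (n = 2) and LN229 cells without treatment (n = 2), whose labels name a time of 0 min. The treated and untreated cells therefore differed in time as well as in sCT, and these cannot be told apart. The design calls the samples biological duplicates without saying whether each was a separate culture, and p-values then measure only the spread between these samples, which may be technical. An RPPA slide carries spots of every lysate and is stained with a single antibody. In a lysate, fewer cells with a protein and less of it per cell cannot be told apart. The authors deposited linear relative levels, with the median of each of the 4 samples close to 1, so a level compares samples for one antibody and does not say which protein is more abundant, or whether LN229 cells make it at all. Levels were compared on the log2 scale with limma, which pools information on the spread over the whole panel, and all adjusted p-values are limma's with Benjamini-Hochberg adjustment over 440 antibodies.

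EMT is the process in which epithelial cells give up their junctions and take on a motile, matrix-producing form. E-Cadherin is the calcium-dependent adhesion protein of epithelial junctions and binds β-catenin through its cytoplasmic tail, and claudins seal the neighbouring tight junctions. Snail and ZEB1 are zinc finger repressors that bind E-box motifs in genes of epithelial junctions, E-Cadherin's among them, and Twist is a basic helix-loop-helix factor with a similar role. Glioma cells are not epithelial, but Snail, ZEB1 and Twist are known there for their part in invasion, and fibronectin, CD44 and MMP14 are known from invading glioma cells too.

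The E-box preferred by Snail and ZEB1 and the cAMP response element are shown here in promoters of the examined genes, because these repressors fell and because CTR signals through cAMP. The files name antibodies and not genes, so genes were assigned from the protein names. Of 8 genes looked up in RefSeq, 5 had promoters in the table used (CLDN7, FN1, ZEB1, CD44 and MMP14), with 12 annotated start sites in all. Collagen-VI was not looked up, since its antibody does not name a chain. The 250 bases before a start of CLDN7 and of FN1, both on the minus strand and written 5′ to 3′ along the gene, carry in capitals the E-box CACCTG, read on either strand as CACCTG or CAGGTG, and the palindromic cAMP response element TGACGTCA.
CLDN7 (Claudin-7), GRCh38.p14, chr17:7262479-7262728, minus strand: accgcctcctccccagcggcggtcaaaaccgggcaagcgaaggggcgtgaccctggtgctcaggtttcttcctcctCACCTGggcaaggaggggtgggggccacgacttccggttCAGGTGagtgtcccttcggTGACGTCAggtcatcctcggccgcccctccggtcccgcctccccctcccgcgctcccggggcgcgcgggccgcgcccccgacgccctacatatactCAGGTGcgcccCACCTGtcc
FN1 (Fibronectin), GRCh38.p14, chr2:215436069-215436318, minus strand: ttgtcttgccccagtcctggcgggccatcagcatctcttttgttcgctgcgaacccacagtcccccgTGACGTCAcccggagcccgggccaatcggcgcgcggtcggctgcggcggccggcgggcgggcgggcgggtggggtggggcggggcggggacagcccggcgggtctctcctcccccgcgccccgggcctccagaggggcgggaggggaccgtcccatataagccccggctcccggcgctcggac
The CLDN7 window held 4 E-boxes and 1 cAMP response element, none of which overlap. The FN1 window held 1 cAMP response element and no E-box of this sequence. Of the 12 windows, 3 held the E-box and 2 the cAMP response element. Among 35116 promoter windows of this length, the shares were 17.5% and 1.65%. Besides that of CLDN7, the windows with the E-box were of ZEB1. Most of the 12 starts were of ZEB1 and lay close together, so the windows are not independent and enrichment was not tested. Both motifs together were found in 0.265% of windows. The 2 windows printed are those of the 12 that hold the cAMP response element, so this share does not measure how unusual they are. A second annotated start of CLDN7 had neither motif in the 250 bases before it. These matches describe the sequence, and binding was not measured. CREB, the factor named for binding the cAMP response element, was lower after sCT in its form phosphorylated at S133 (log2 fold change -2.04, adjusted p = 0.000141). Total CREB was higher (0.30, adjusted p = 0.0125). A link of either to these promoters was not tested.

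After 60 min of sCT, Snail, ZEB1 and Fibronectin were lower, CD44 and MMP14 were higher, and E-Cadherin, Claudin-7, Twist and Collagen-VI did not pass an adjusted p of 0.05. That is 5 of 9 antibodies past the threshold, where 55.0% of the whole panel passed. The 3 lower antibodies compare with 33.6% of the panel and the 2 higher ones with 21.4%. The share that passed was thus near that of the panel in either direction, and the count is not a result about EMT proteins. The median log2 fold change was -0.0080 over the 9 antibodies and 0.02 over all 440. Under a second rule, taken from the study's heatmap of another pathway, which asks for a log2 fold change of at least 0.58 in size and an unadjusted p under 0.05, ZEB1 alone of the 9 passed, where 21.6% of the panel passed. Both sCT-treated samples lay outside the range of the untreated samples for 7 of the 9, 4 below and 3 above, where the groups did not overlap for 85.9% of the panel.

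**Figure D1:**
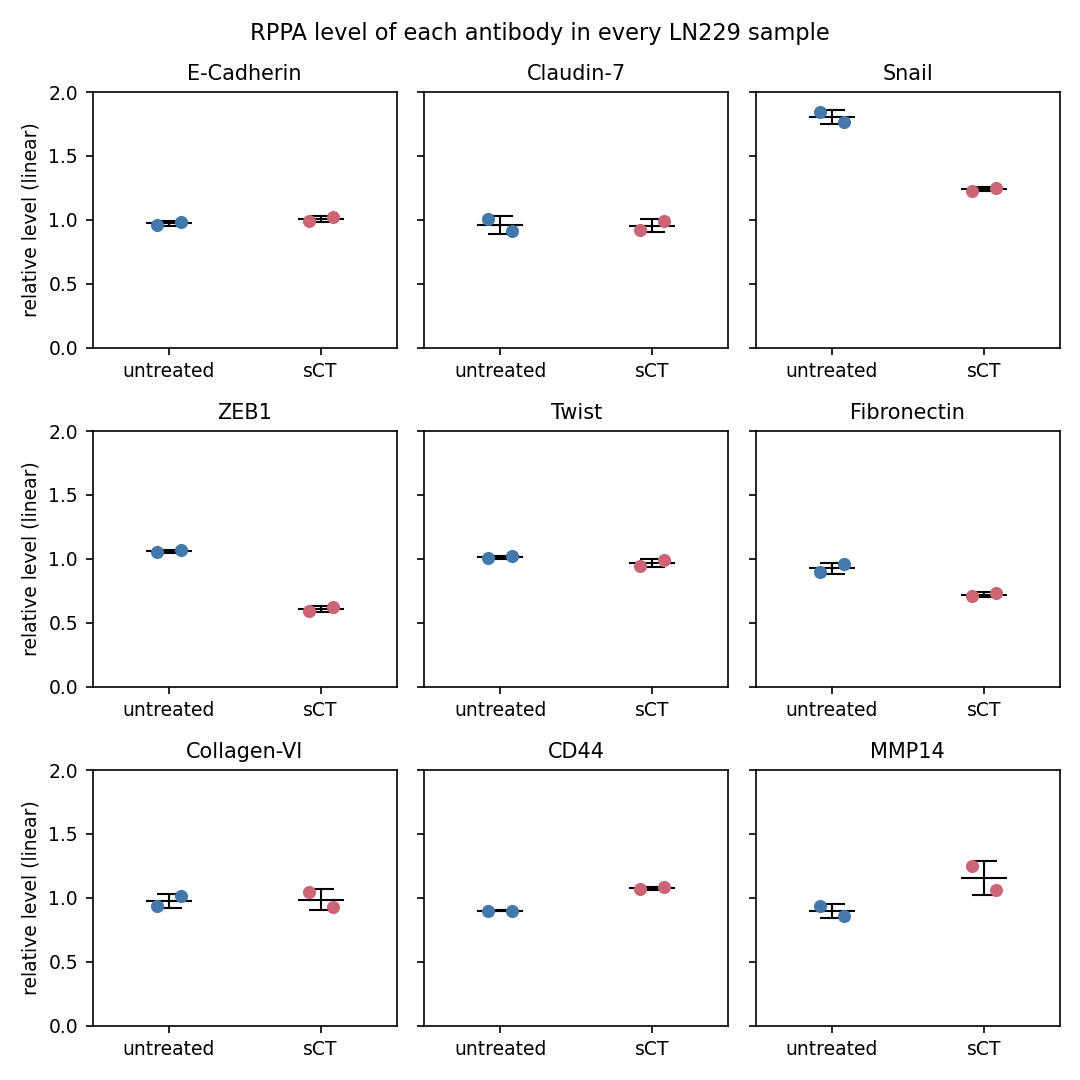
Relative level on a linear scale (vertical axis) of each of the 9 antibodies in the 2 untreated and 2 sCT-treated LN229 samples. Points are samples, long bars are group means and whiskers are 1 SD. The groups are clearly apart for Snail and ZEB1, while the points of Claudin-7 and Collagen-VI overlap.

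Among the junction proteins, E-Cadherin had levels of 0.958 and 0.985 in untreated cells and of 0.990 and 1.02 after sCT. Both treated samples were above both untreated ones, but the nearest samples of the groups lay closer together than the replicates of either group. The log2 fold change was 0.051 (SE 0.047, 95% interval -0.072 to 0.17, adjusted p = 0.379). Its direction turned with the scaling. Each sample was also centred on 8 loading control antibodies chosen here, each taken relative to its own mean. The log2 fold change of E-Cadherin was then -0.085 (adjusted p = 0.145).

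Claudin-7, a sealing protein of tight junctions, had levels of 1.01 and 0.912 in untreated cells and of 0.919 and 0.990 after sCT. The groups overlapped, and the replicates differed from each other by more than the group means did. The log2 fold change was -0.0080 (SE 0.073, 95% interval -0.20 to 0.18, adjusted p = 0.926). Neither junction protein therefore passed the test.

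The antibodies whose levels over the 4 samples ran closest to E-Cadherin, by the Euclidean distance of log2 levels after each antibody was centred on its own mean, were TFAM (distance 0.0174), FRS2-a_pY196 (0.0213) and p70-S6K_pT389 (0.0214). TFAM packages and transcribes mitochondrial DNA, FRS2 is the adaptor of FGF receptors and p70-S6K is the kinase of ribosomal protein S6. All of them had small log2 fold changes, between 0.049 and 0.064, and none passed the test (adjusted p between 0.276 and 0.437). With 4 samples, many flat antibodies share such a profile.

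Of the transcription factors, ZEB1 had the largest fall of the 9 antibodies. Its levels were 1.05 and 1.07 in untreated cells and 0.590 and 0.622 after sCT. All the treated values were far below the untreated ones, and the replicates of each group were close to each other. The mean went from 1.06 ± 0.0115 (SD, n = 2) to 0.606 ± 0.0223 (SD, n = 2), which is -0.81 on the log2 scale (SE 0.049, 95% interval -0.94 to -0.68, adjusted p = 0.000340). Compared by geometric means, ZEB1 fell by 42.8%. Within the panel of 440 it held rank 64 from the lowest fold change, so larger falls were common.

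Snail is a short-lived protein in many cells and is marked for destruction by GSK3. Its levels were 1.84 and 1.76 in untreated cells and 1.23 and 1.25 after sCT. The groups were apart by much more than either pair of replicates. The mean went from 1.80 ± 0.0563 (SD, n = 2) to 1.24 ± 0.0169 (SD, n = 2), which is -0.54 on the log2 scale (SE 0.048, 95% interval -0.67 to -0.41, adjusted p = 0.000945). Snail was lower under each scaling tried, but quantile normalization moved its log2 fold change to -0.29 (adjusted p = 0.0227).

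Twist had levels of 1.01 and 1.02 in untreated cells and of 0.947 and 0.992 after sCT. Both treated values were below both untreated ones, with a gap smaller than the spread within the treated pair. The log2 fold change was -0.064 (SE 0.048, 95% interval -0.19 to 0.062, adjusted p = 0.291). Loading control centring brought Twist past the threshold, at -0.20 (adjusted p = 0.0194). On the deposited scale the 95% interval of Twist did not reach the intervals of Snail and ZEB1.

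**Figure D2:**
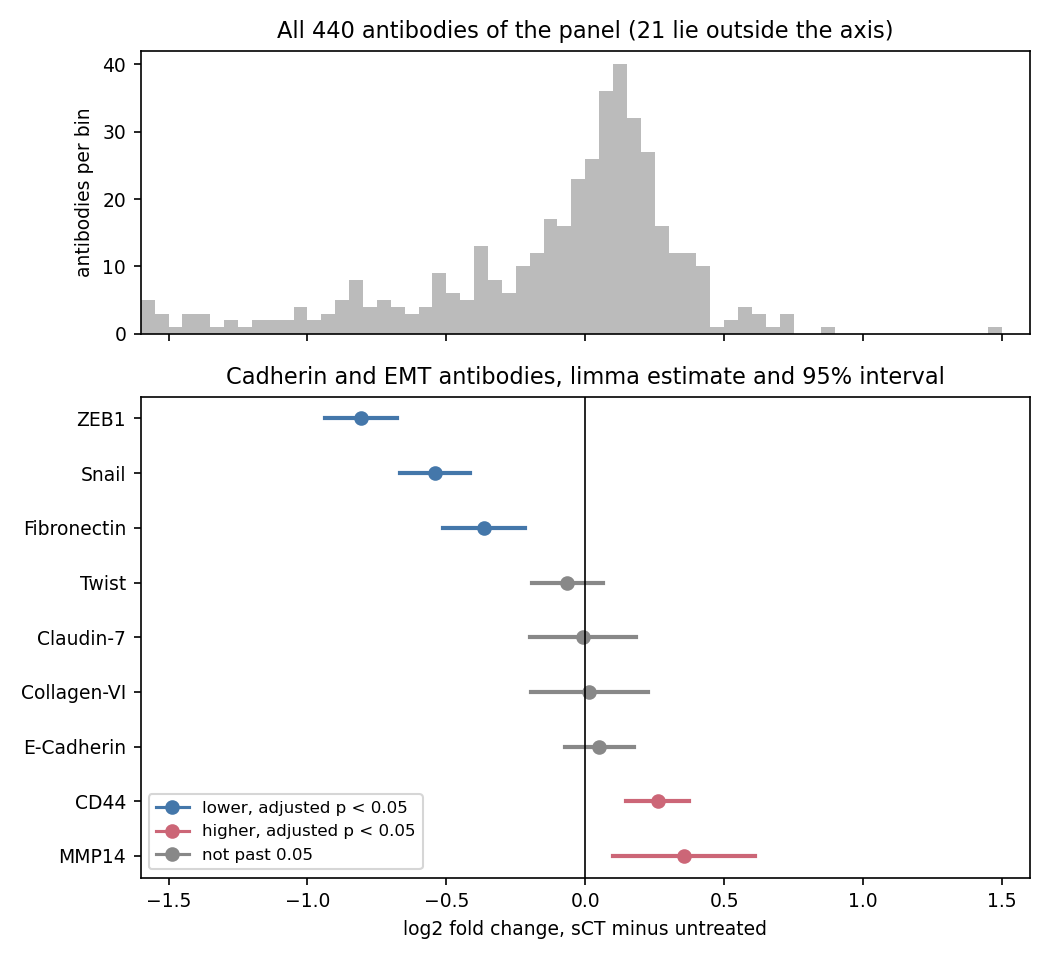
Top, number of antibodies (vertical axis) by log2 fold change of sCT-treated over untreated cells for the whole panel, of which 21 antibodies lie outside the axis. Bottom, limma's log2 fold change (points) and 95% interval (lines) of the 9 antibodies on the same axis. ZEB1, Snail and Fibronectin lie below 0, CD44 and MMP14 above 0, and the intervals of the other 4 contain 0.

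The antibodies with levels closest to ZEB1 over the 4 samples were ULK1_pS757 (distance 0.0461 and log2 fold change -0.85), YAP (0.0580 and -0.80) and BRCA1 (0.0634 and -0.86). ULK1 is the kinase that starts autophagy, S757 is its mTOR site, YAP is the co-activator held back by the Hippo pathway, and BRCA1 acts in DNA repair. YAP went from 1.47 and 1.56 to 0.858 and 0.877, a fall in step with that of ZEB1. The likeness was measured over 4 samples that fall into 2 groups, and any antibody with a fall of this size and tight replicates would be near ZEB1.

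The matrix proteins differed from each other. Fibronectin, a large secreted glycoprotein that binds integrins, had levels of 0.894 and 0.958 in untreated cells and of 0.706 and 0.732 after sCT. The treated samples were both lower, and the groups did not overlap. The mean went from 0.926 ± 0.0450 (SD, n = 2) to 0.719 ± 0.0183 (SD, n = 2), which is -0.36 on the log2 scale (SE 0.056, 95% interval -0.51 to -0.22, adjusted p = 0.00583). The call was lost under quantile normalization, where the log2 fold change was -0.11 (adjusted p = 0.468). It was also lost when sCT replicate 1 was left out (adjusted p = 0.0518).

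Collagen-VI, a microfibril collagen of the pericellular matrix, had levels of 0.933 and 1.01 in untreated cells and of 1.04 and 0.927 after sCT. Both untreated samples lay between the treated ones. The log2 fold change was 0.015 (SE 0.080, 95% interval -0.20 to 0.23, adjusted p = 0.875), an interval that holds neither the rise of CD44 nor the fall of Fibronectin.

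The surface proteins were higher after sCT on the deposited scale. CD44, the receptor for hyaluronan, had levels of 0.900 and 0.895 in untreated cells and of 1.07 and 1.08 after sCT, the tightest replicates of the 9 antibodies. The groups did not overlap. The mean went from 0.897 ± 0.00392 (SD, n = 2) to 1.08 ± 0.0114 (SD, n = 2), which is 0.26 on the log2 scale (SE 0.043, 95% interval 0.15 to 0.37, adjusted p = 0.00681). The rise was smaller than that of GAPDH, a loading control, at 0.57 (adjusted p = 0.00578). Loading control centring, which moved the median of the whole panel by -0.14 log2 units, left CD44 at 0.12 (adjusted p = 0.0612). Leaving out sCT replicate 2 gave an adjusted p of 0.0514.

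MMP14 is the membrane-anchored protease that cleaves matrix collagen and activates MMP2 at the cell surface. Its levels were 0.937 and 0.861 in untreated cells and 1.25 and 1.06 after sCT. Both treated samples were above both untreated ones, but the treated pair was far apart. The mean went from 0.899 ± 0.0536 (SD, n = 2) to 1.15 ± 0.131 (SD, n = 2), which is 0.36 on the log2 scale (SE 0.096, 95% interval 0.10 to 0.61, adjusted p = 0.0326). The call rested on few samples and on the scaling. Its adjusted p was 0.0718 without untreated replicate 1 (log2 fold change 0.42), 0.138 without untreated replicate 2 (0.29), 0.113 without sCT replicate 1 (0.24) and 0.167 with loading control centring (0.22), while without sCT replicate 2 it passed (0.47, adjusted p = 0.0308).

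**Figure D3:**
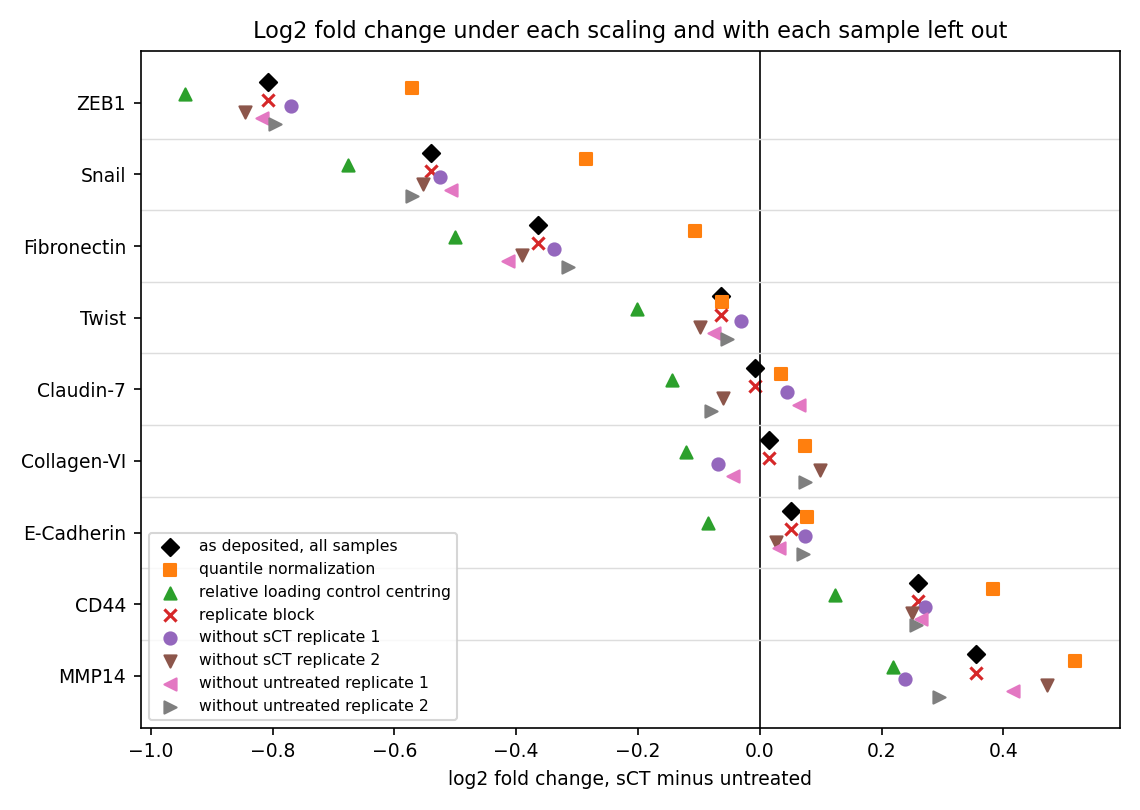
Log2 fold change of sCT-treated over untreated cells (horizontal axis) for each of the 9 antibodies as deposited, under other scalings, with the replicate number as a block and without each sample in turn. ZEB1 and Snail stay below 0 in all of these, from -0.94 to -0.57 and from -0.68 to -0.29, while E-Cadherin, Claudin-7 and Collagen-VI take both signs.

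The ratio of antibodies within a sample does not move when the whole sample is rescaled by a factor, so each level was also divided by that of E-Cadherin in the same sample. ZEB1 over E-Cadherin was 1.10 and 1.08 in untreated cells and 0.596 and 0.608 after sCT, a log2 difference of -0.86. Snail over E-Cadherin was 1.92 and 1.79 in untreated cells and 1.24 and 1.22 after sCT, a log2 difference of -0.59. Both repressors were thus lower relative to the junction protein in each treated sample. Fibronectin over E-Cadherin was 0.934 and 0.973 in untreated cells and 0.713 and 0.715 after sCT, and CD44 over E-Cadherin was 0.940 and 0.908 in untreated cells and 1.08 and 1.06 after sCT. In all, 6 of the 8 ratios did not overlap between the groups, where 79.0% of the ratios of the 439 other antibodies to E-Cadherin did not, so the count is not particular to these proteins. Such a ratio depends on both antibodies, and with 2 samples against 2 the exact permutation test cannot give a two-sided p below 0.333, which is the value that each of these 6 had.

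Other adhesion, matrix and TGF-β proteins were read from a list chosen by name, of which 18 antibodies were in the panel. Of these, 8 passed an adjusted p of 0.05, with 6 lower (33.3%, against 33.6% of the panel) and 2 higher (11.1%, against 21.4%). Their median log2 fold change was -0.03. The calls of the list were sensitive to the scaling, with 8 lower and 0 higher under loading control centring (194 and 39 of the panel) and 5 lower and 3 higher under quantile normalization (115 and 103 of the panel), so that the list moved the way the panel did. Without sCT replicate 2 there were 3 calls, all lower (115 lower and 43 higher in the panel), and CD49b, Annexin-I, Caveolin-1, Smad3 and Smad4 then had adjusted p-values between 0.0503 and 0.0718.

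Closest to E-Cadherin in function is β-catenin, which links cadherins to the actin cytoskeleton and also carries Wnt signals. Its levels were 1.13 and 1.07 in untreated cells and 0.774 and 0.786 after sCT. Total β-catenin was lower in both treated samples, at -0.49 on the log2 scale (SE 0.051, adjusted p = 0.00160). E-Cadherin did not pass, and binding between these proteins in LN229 cells was not measured. The antibody to β-catenin phosphorylated at T41 and S45, sites of the destruction complex, stood at -0.047 on the log2 scale (adjusted p = 0.380) and passed with loading control centring at -0.18 (adjusted p = 0.0266). P-Cadherin, a classical cadherin of basal epithelium, had levels of 1.01 and 1.05 in untreated cells and of 1.11 and 1.16 after sCT, or 0.13 on the log2 scale (95% interval 0.0016 to 0.27, adjusted p = 0.0780), and it stood at -0.0021 with loading control centring (adjusted p = 0.974). Neither E-Cadherin nor P-Cadherin thus passed the test.

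The adhesion receptors split. CD171 (L1CAM), a neural adhesion molecule, fell from 1.16 and 1.21 to 0.898 and 0.931, which is -0.37 on the log2 scale (adjusted p = 0.00334). CD49b, the integrin α2 chain that binds collagen, went from 0.936 and 0.882 to 1.10 and 1.06, which is 0.24 on the log2 scale (adjusted p = 0.0170), and lost its call with loading control centring (adjusted p = 0.208). Its partner CD29, the integrin β1 chain, stood at 0.025 (adjusted p = 0.757). Integrin chains that work as a pair therefore did not share a call.

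Of the membrane and cytoskeletal proteins, the receptor tyrosine kinase Axl, known from mesenchymal tumour cells, had the largest fall of the list, from 1.31 and 1.29 to 0.834 and 0.821, which is -0.65 on the log2 scale (adjusted p = 0.000432). Caveolin-1, the coat protein of caveolae, was lower at -0.53 (adjusted p = 0.00587), which turned to 0.13 (adjusted p = 0.708) under quantile normalization. Annexin-I, which binds membranes in a calcium-dependent way, was higher at 0.25 (adjusted p = 0.0107). It stood at 2.01 under quantile normalization (adjusted p = 0.00710) and at 0.12 with loading control centring, where it did not pass (adjusted p = 0.121). Its level in untreated replicate 1, 0.596, was the smallest of that sample. Both Annexin-I and Caveolin-1 were among the lowest 10% of the panel by mean level, so their quantile-normalized values were not read as sizes of change. Vimentin, the intermediate filament of mesenchymal and glial cells, had levels of 0.904 and 1.09 in untreated cells and of 0.824 and 0.874 after sCT, or -0.22 on the log2 scale (adjusted p = 0.119). Its untreated replicates differed by more than the group means did. Vimentin passed with loading control centring (-0.36, adjusted p = 0.0363) and without untreated replicate 1 (-0.36, adjusted p = 0.0252), and stood at -0.091 without untreated replicate 2. Rab25, a small GTPase of epithelial cells, stood at 0.085 (adjusted p = 0.209).

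The proteins of matrix turnover had no call on the deposited scale. PAI-1, the inhibitor of plasminogen activators, stood at 0.0056 on the log2 scale (adjusted p = 0.940), but at 1.10 under quantile normalization, where it passed (adjusted p = 0.00670). PAI-1 too was among the lowest 10% of the panel by mean level. MMP2, which MMP14 activates, had levels of 0.946 and 0.737 in untreated cells and of 1.10 and 0.931 after sCT, with overlapping groups (log2 fold change 0.28, 95% interval -0.12 to 0.67, adjusted p = 0.170). It was higher after sCT within both numbered pairs, and with the replicate number as a block its adjusted p was 0.0306. Transglutaminase, which crosslinks matrix proteins, could not be judged, since its untreated replicates were 1.29 and 0.496 and its log2 fold change took opposite signs with either left out, 0.35 without untreated replicate 1 and -1.04 without untreated replicate 2. TGF-β is a main inducer of Snail and ZEB1. Among proteins that signal for the wider TGF-β family, Smad3 and Smad4 fell by 0.37 and 0.23 on the log2 scale (adjusted p = 0.00679 and 0.0102). Smad1 and the receptor ACVRL1 stood at -0.017 and 0.076 (adjusted p = 0.760 and 0.291), and the branches of the family were not told apart here. With loading control centring CD29, Rab25, PAI-1 and ACVRL1 turned to between -0.13 and -0.051, and under quantile normalization Smad1 turned to 0.070, none of them past the threshold there.

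**Figure D4:**
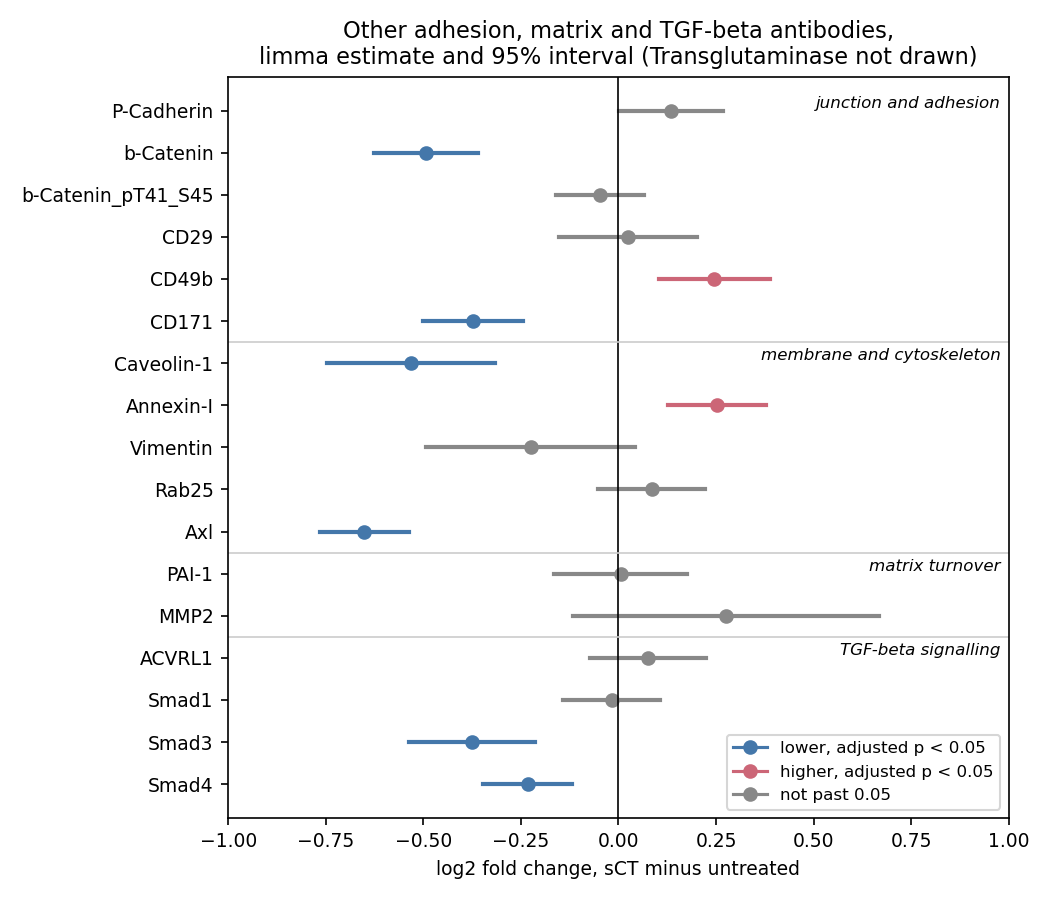
Limma's log2 fold change of sCT-treated over untreated cells (points) and 95% interval (lines) for 17 antibodies to other adhesion, matrix and TGF-β proteins, in groups by role, without Transglutaminase. Axl, Caveolin-1, b-Catenin, Smad3, CD171 and Smad4 lie below 0 and CD49b and Annexin-I above 0, each with an adjusted p under 0.05.

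Markers of other cell types and loading controls were read beside these results. Of 3 epithelial markers (E-Cadherin, Claudin-7 and Rab25) and 3 leukocyte markers (CD45, CD4 and CD38), 0 passed an adjusted p of 0.05, where 55.0% of the panel passed, with log2 fold changes between -0.0080 and 0.20. EMA, an epithelial mucin of the panel that was not on this list, was higher at 0.45 (adjusted p = 0.00599). All 3 leukocyte markers had both treated samples above both untreated ones, as did 189 of the 440 antibodies. Some leukocyte antibodies not on this list were read after their values were seen. CD68, Granzyme-B and CD26 were higher, at 0.41, 0.23 and 0.22 (adjusted p = 0.00174, 0.0126 and 0.0152). CD86 and CD134 did not pass (adjusted p = 0.0614 and 0.0937). Of the glial and neural markers Sox2 and Vimentin, Sox2 was lower, at -0.91 (adjusted p = 0.000416). The 8 loading controls were GAPDH, b-Actin, D-a-Tubulin, Porin, Cox-IV, Histone-H3, Cyclophilin-F and Vinculin. Of these, 3 were higher (GAPDH, b-Actin and Cyclophilin-F) and 0 lower, with a median log2 fold change of 0.12. Both treated samples lay above both untreated ones for 6 of the 8 and below for 1, where the groups did not overlap for 85.9% of the panel. Another choice of controls was not tried. Their part in the changes of Snail, ZEB1, Fibronectin, CD44 and MMP14 was measured only as far as the loading control centring shows.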

How the data were processed

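LN229 cells were profiled by RPPA in 4 samples, 2 untreated and 2 treated with sCT. By the study's methods, dilutions of each lysate were spotted on slides, probed with primary antibodies, stained with DAB and read with Array-Pro Analyzer. The authors deposited linear ratios, one relative level per antibody and sample. The steps from spot intensity to ratio are not given in the sources used here. Signal over background is therefore unknown, and the number of samples limits the precision.

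All levels were above 0 and were transformed to log2 with no pseudocount and no filter. The comparison used the lmFit and eBayes functions of limma (version 3.58.1, under R 4.3.3), without covariates, two-sided, with 2 residual and 2.59 prior degrees of freedom, with Benjamini-Hochberg adjustment over 440 antibodies and a threshold of 0.05. The fit was run on simulated data with independent noise in each antibody and sample. That setting has no effect shared within a sample, so it does not vouch for the p-values given here. Antibodies and lists were chosen with earlier results of these data known. Named were all antibodies of the EMT list, antibodies of the adhesion, matrix and TGF-β list, and the 3 nearest profiles of E-Cadherin and of the antibody with the largest change. Connexin-43, EMA, S100A4, LAD1, CD68, Granzyme-B, CD26, CD86, CD134 and the CREB antibodies joined them once their values had been seen. The alternatives were linear levels, median centring, quantile normalization, relative loading control centring, an unequal-variance test, a variance trend with robust estimation, dropping the antibodies with a mean level in the lowest 10%, dropping each sample and the replicate number as a block. The closing section gives their effect. Promoter sequences are from RefSeq (GRCh38.p14).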

Additional observations from a re-analysis of the deposited data

How the results depend on the processing

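Of the 9 EMT antibodies, 5 passed in limma and 4 or 5 did so under every other scaling, estimation and filter tried with all samples, except an unequal-variance test of the linear levels. That test called, after adjustment, 0 of the 9 (3 at an unadjusted p of 0.05) and 1 of the whole panel, where limma called 242. With a sample left out, the count for the 9 was between 3 and 4 and that of the panel between 148 and 214, the lowest without sCT replicate 1 (148 of the panel) and sCT replicate 2 (158). Each such fit has fewer degrees of freedom and takes the spread of the lone sample from the other group. Claudin-7 turned to 0.035 under quantile normalization, and ranged from -0.080 to 0.064 with a sample left out. E-Cadherin turned to -0.085 and Collagen-VI to -0.12 with relative loading control centring, and Collagen-VI ranged from -0.069 to 0.099 with a sample left out. None of these passed. Loading control centring gave 4 lower and 0 higher among the 9 and 194 lower and 39 higher in the panel, compared with 148 and 94 on the deposited scale, and quantile normalization gave 2 lower and 2 higher among the 9 and 115 lower and 103 higher in the panel. Quantile normalization treats levels of different antibodies as comparable. Annexin-I, Caveolin-1, PAI-1 and Connexin-43 shifted under it and were all among the lowest 10% by mean level. These shifts were not read as changes of the proteins. LAD1 shifted as well but was not among the lowest 10%. Nor were the loading controls Vinculin, Cox-IV and GAPDH, whose log2 fold changes went from 0.039, 0.12 and 0.57 to 0.61, 0.37 and 1.13. Causes were not tested.

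The replicate numbers are shared between groups, and same-numbered samples deviated together (Pearson's r = 0.586 across antibodies, which are not independent replicates), but with 2 pairs a shared number does not show a pairing. With the replicate block, 5 of the 9 and 238 of the panel passed, and no call among the 9 changed. Of the adhesion, matrix and TGF-β list, 9 passed with the block, MMP2 (adjusted p = 0.0306) being added, and the loading control b-Actin did not pass (adjusted p = 0.0608). The ratio of E-Cadherin to N-Cadherin was not run, since N-Cadherin was not analysed here.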

Other observations

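Some antibodies outside the lists touch the same biology and were picked after their values were seen. Connexin-43, the main gap junction protein of astrocytes, had levels of 0.600 and 0.702 in untreated cells and of 0.115 and 0.225 after sCT, which is -2.02 on the log2 scale (SE 0.33, limma's adjusted p = 0.00689). Both treated levels were far below the untreated ones but differed much from each other. Connexin-43 was among the lowest 10% of the panel by mean level. The log2 fold change was -2.50 without sCT replicate 2 and -1.53 without sCT replicate 1. Without untreated replicate 2 its adjusted p was 0.0547, and quantile normalization gave 0.25 (adjusted p = 0.709). EMA, the surface mucin of epithelial cells, went from 0.945 and 0.867 to 1.29 and 1.19, a log2 fold change of 0.45 (adjusted p = 0.00599), and was still higher under quantile normalization (0.64, adjusted p = 0.0113) and with loading control centring (0.32, adjusted p = 0.0328). S100A4, a calcium-binding protein of motile mesenchymal cells, and LAD1, a basement membrane anchor, had log2 fold changes of 0.13 and 0.14 (adjusted p = 0.0852 and 0.0697), with both treated samples above both untreated ones. Under quantile normalization LAD1 passed (0.55, adjusted p = 0.00535), and with loading control centring S100A4 stood at -0.011 and LAD1 at -0.00040.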
